A study of Mus musculus with 6 samples.

Results

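The genes described here are Hif1a, which encodes the oxygen-labile subunit of the hypoxia-inducible transcription factor, the prolyl hydroxylase genes Egln1 and Egln3, and 7 genes known as hypoxia targets, Vegfa, Bnip3, Ndrg1, Ero1l, Ankrd37, P4ha1 and P4ha2. They were chosen by symbol. Of the 10 symbols, 9 stand on 1 row each of a table of 26096 genes, and P4ha2 was not analysed here. All 9 passed the filter on low values. The data are RNA sequencing profiles of wild-type (WT) mouse microglia given culture medium from bone marrow-derived macrophages (BMDMs). In 3 samples (FeM CM-treated, called ferroptotic medium here) the BMDMs were ferroptotic, that is, dying through iron-dependent lipid peroxidation, and in 3 samples (C CM-treated, called control medium) they were normal. The sources used here do not give the agent that induced ferroptosis, the time in medium, the oxygen level of the cultures, or the age and origin of the microglia. General macrophage genes were abundant (Csf1r at 76237 ± 1842 and 58594 ± 778, Lyz2 at 207348 ± 6250 and 229156 ± 3639 normalized counts with control and ferroptotic medium, mean ± SD of 3 libraries), but the defining microglial markers P2ry12 and Tmem119 had 3 and 21 reads over the 6 libraries, and C1qa had 5.

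HIF1A is made continuously and, where oxygen is plentiful, is hydroxylated on prolines by the EGLN enzymes (also called PHDs), bound by the VHL ubiquitin ligase and degraded. The hydroxylation needs oxygen, iron and 2-oxoglutarate, so HIF1A protein accumulates when oxygen or iron is short, pairs with ARNT and binds hypoxia response elements in its target genes. In macrophages and microglia HIF1A is also known for glycolytic and inflammatory gene expression. Because control of HIF1A is largely at the protein level, an mRNA value measures neither HIF1A protein nor its activity, and neither was measured in these data.

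With ferroptotic medium 7 of the 9 genes rose (Hif1a, Egln3, Vegfa, Bnip3, Ndrg1, Ero1l and P4ha1), Egln1 fell by a small amount, and Ankrd37 did not pass the test. The test was limma on the deposited log2 values, with a threshold of 0.05 on p-values adjusted over the 15597 genes tested. In the same test 42.5% of all genes passed, 19.7% higher and 22.8% lower. Vegfa changed most, 4.25-fold, and was the 1 gene of the 9 with a called change of at least 2-fold, against 3.95% of all genes higher and 3.7% lower by that much. The other genes that rose did so between 1.29-fold (P4ha1) and 1.86-fold (Ero1l). The median log2 fold change of the 9 genes was 0.54, against -0.005 over all genes tested. Whether each sample was a culture of its own is not in the labels, so a p-value here is set against the spread of these 6 samples alone, which may be technical. In bulk RNA, fewer cells of a type and less RNA per cell cannot be told apart.

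**Figure D1:**
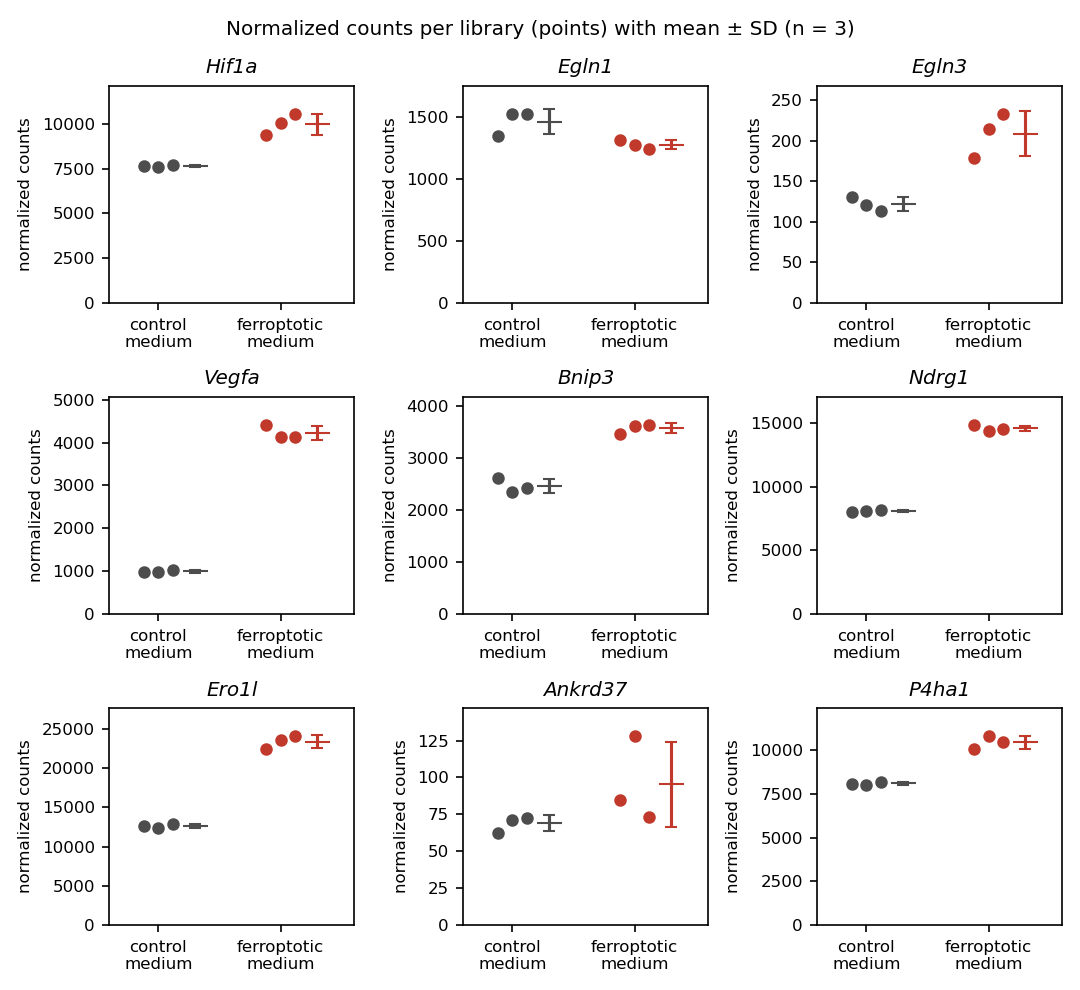
Normalized counts (vertical axes, each from 0) of the 9 genes in the 3 control and 3 ferroptotic medium libraries. Points are libraries and bars are means ± SD. In all panels except that of Egln1 every ferroptotic medium library lies above every control library, and for Ankrd37 the gap is from 72.4 to 73.1 only.

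Promoter sequences are shown because the genes carry the letters that HIF1A and ARNT are known to bind. The core of a hypoxia response element was searched as ACGTG or GCGTG on both strands, in windows of 300 bases that run from 250 bases before the transcription start to 50 bases after it (RefSeq, GRCm38.p6). An ACGTG on one strand can overlap one on the other. Of the 9 genes 8 have an entry in the table used, under the symbol Ero1a for Ero1l, and all 8 held at least 1 ACGTG. For Vegfa it was only in the window of the downstream one of its 2 starts. Neither the use of that start in these cells nor overlap of its window with coding sequence was examined. The place of Vegfa among the 8 rests on that window alone. Over the whole RefSeq set, 43.8% of 32851 windows held either core and 19.6% held ACGTG. Among 10094 of the genes tested here, 66.8% held either core and 29.4% held ACGTG. A match is only a match of letters, and binding was not measured. Of the 4 genes that rose and held at least 3 matches, the windows of 3 are shown, and that of Hif1a is left out. Those of the hydroxylase genes Egln3 and Egln1, which moved in opposite directions, are shown too. Both cores are in capitals (a match on the opposite strand reads CACGT or CACGC). The windows are, 5' to 3' on the gene's strand, as follows.
Bnip3: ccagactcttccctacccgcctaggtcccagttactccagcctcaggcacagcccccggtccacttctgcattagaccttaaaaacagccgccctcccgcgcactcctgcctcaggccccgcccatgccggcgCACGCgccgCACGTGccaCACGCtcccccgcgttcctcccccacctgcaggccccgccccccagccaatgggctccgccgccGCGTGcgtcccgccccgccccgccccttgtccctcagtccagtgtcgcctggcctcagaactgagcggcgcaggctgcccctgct
Ero1l: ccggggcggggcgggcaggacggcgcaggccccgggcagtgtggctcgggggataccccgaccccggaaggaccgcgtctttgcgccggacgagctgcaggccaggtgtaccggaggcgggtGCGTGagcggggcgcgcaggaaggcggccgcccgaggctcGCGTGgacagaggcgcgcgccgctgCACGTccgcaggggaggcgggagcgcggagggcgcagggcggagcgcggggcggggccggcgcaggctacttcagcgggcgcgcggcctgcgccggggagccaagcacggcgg
P4ha1: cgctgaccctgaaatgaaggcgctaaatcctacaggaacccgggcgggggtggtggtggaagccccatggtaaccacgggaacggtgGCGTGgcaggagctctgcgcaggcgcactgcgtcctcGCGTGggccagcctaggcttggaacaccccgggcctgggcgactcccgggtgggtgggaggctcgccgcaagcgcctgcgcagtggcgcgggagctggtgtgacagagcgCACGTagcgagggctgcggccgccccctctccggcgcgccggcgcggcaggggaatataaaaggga
Egln3: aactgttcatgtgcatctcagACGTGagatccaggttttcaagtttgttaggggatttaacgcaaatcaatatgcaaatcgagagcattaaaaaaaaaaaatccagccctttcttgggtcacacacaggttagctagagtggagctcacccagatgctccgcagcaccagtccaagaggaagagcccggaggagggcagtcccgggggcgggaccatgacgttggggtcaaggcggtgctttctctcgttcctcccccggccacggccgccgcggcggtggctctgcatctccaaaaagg
Egln1: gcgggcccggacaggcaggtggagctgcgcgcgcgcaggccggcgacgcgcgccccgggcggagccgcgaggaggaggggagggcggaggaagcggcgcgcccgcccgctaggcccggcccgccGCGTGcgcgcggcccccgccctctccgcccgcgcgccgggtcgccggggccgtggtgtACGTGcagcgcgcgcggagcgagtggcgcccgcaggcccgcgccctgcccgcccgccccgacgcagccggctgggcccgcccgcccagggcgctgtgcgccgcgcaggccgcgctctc
The Bnip3 window (chr7:138909457-138909756, minus strand) held 5 matches, 4 of them between positions -117 and -95 relative to the start, where the letters CACGTG read as ACGTG on both strands. The Ero1l window (chr14:45318523-45318822, minus strand) and the P4ha1 window (chr10:59323046-59323345, plus strand) held 3 each. The Egln3 window (chr12:54203825-54204124, minus strand) held 1, starting at position -229, and the Egln1 window (chr8:124949205-124949504, minus strand) held 2. Of the remaining genes, Ankrd37 had 4 matches and Hif1a had 3. Vegfa has 2 starts in the table. The window of the upstream start (chr17:46032328-46032627, minus strand) held 0 matches. That of the downstream start (chr17:46025114-46025413) held 2. The presence of the core did not separate the genes by direction, since Egln1, which fell, and Ankrd37, which did not pass, also held it.

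**Figure D2:**
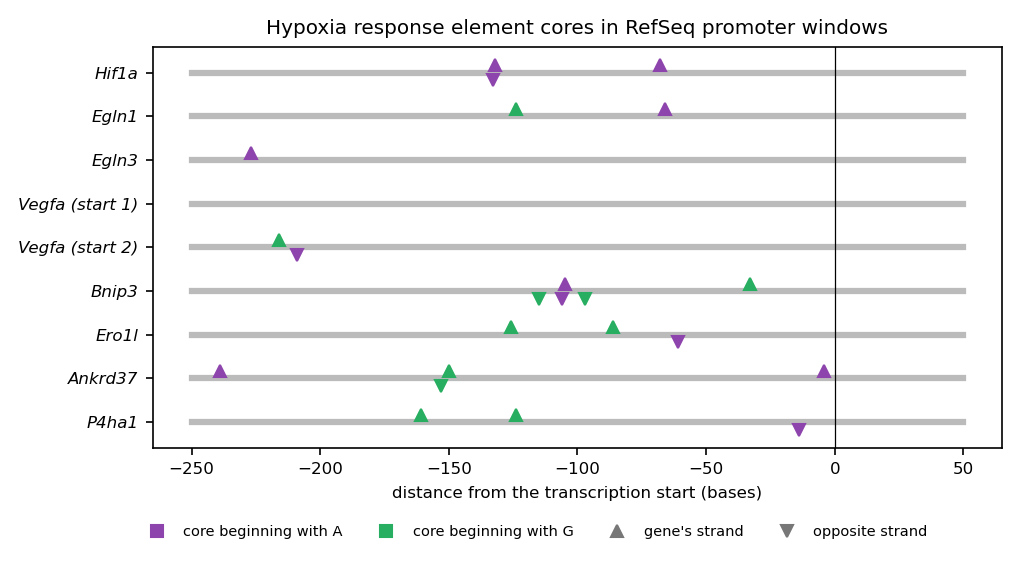
Positions of ACGTG (purple) and GCGTG (green) in 9 promoter windows of 8 genes, by distance from the transcription start in bases. Upward triangles are matches on the gene's strand and downward triangles those on the opposite strand. The Bnip3 matches stand close together, and the first Vegfa window holds 0.

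Hif1a rose by a moderate amount, with a change that was several times its standard error. Hif1a (ENSMUSG00000021109) stood at 7669, 7591 and 7711 normalized counts in control replicates 1 to 3 and at 9363, 10048 and 10525 in the ferroptotic medium replicates. The control libraries lay within 0.02 log2 units of each other, the others spread over 0.17, and the groups did not overlap. The log2 fold change was 0.38 (SE 0.04, 95% interval 0.28 to 0.48; limma adjusted p = 0.000166), or 1.30-fold. The groups of all 9 genes did not overlap, 8 being higher and 1 lower. Over all genes tested this was so for 53.7%, 25.6% higher and 28.2% lower. Of the partners and relatives of HIF1A, Arnt, the shared dimer partner, rose from a mean of 3236 ± 24.2 to 3900.5 ± 194 (normalized counts, ± SD over 3 libraries a group, as for all means here; log2 fold change 0.27, limma adjusted p = 0.0016). Arntl, the related clock factor also named BMAL1, rose as well (0.48, limma adjusted p = 0.000219). Hif3a, at 12.3 ± 3.10 and 17.4 ± 7.06, did not pass (limma adjusted p = 0.483). Epas1, which encodes HIF2A, had 33 reads over the 6 libraries and Arnt2 was below the filter too. Of the 6 listed genes of subunits and relatives 4 were therefore tested and 3 rose (Hif1a, Arnt and the clock gene Arntl), against 19.7% of all genes tested.

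The prolyl hydroxylases changed in different directions. Egln3 (ENSMUSG00000035105), which encodes PHD3 and is itself a known hypoxia target, stood at 131, 121 and 114 normalized counts with control medium and at 179, 215 and 233 with ferroptotic medium. The highest control library was well below the lowest of the others. Its log2 fold change was 0.76 (SE 0.15, 95% interval 0.43 to 1.10; limma adjusted p = 0.00286), or 1.70-fold, on 982 reads over the 6 libraries. Egln1 (ENSMUSG00000031987), which encodes PHD2, the main oxygen sensor for HIF1A, stood at 1345, 1519.7 and 1518 with control medium and at 1310.1, 1275 and 1237 with ferroptotic medium. Control replicate 1 lay close to the ferroptotic medium libraries and apart from the other two controls. The log2 fold change of Egln1 was -0.20 (SE 0.07, 95% interval -0.35 to -0.04; limma adjusted p = 0.0448). That call of Egln1 was lost without control replicate 2 (limma adjusted p = 0.139) or 3 (0.138), without ferroptotic medium replicate 1 (0.0567), 2 (0.0942) or 3 (0.115), with quantile normalization (0.14) and in 5 other alternatives. Egln2, which encodes PHD1, stood at 1989 ± 106 with control and 1751 ± 53.9 with ferroptotic medium, and passed as lower (-0.18; limma adjusted p = 0.0304). Its call was also lost without control replicate 2 (0.11) or 3 (0.0587), without ferroptotic medium replicate 1 (0.0592) or 2 (0.0941), and in 4 other alternatives. Hif1an, the asparagine hydroxylase FIH that blocks coactivator binding, had 2295 ± 71.1 and 2417 ± 75.2 (0.07, 95% interval -0.04 to 0.19; limma adjusted p = 0.261). P4htm, a transmembrane relative, had 55 reads over the 6 libraries and was below the filter.

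The difference between 2 genes of a family was compared within each library. Egln3 minus Egln1, in log2 units, was -3.57 ± 0.20 with control medium and -2.61 ± 0.23 with ferroptotic medium, a change of 0.96. All 3 ferroptotic medium libraries were above all 3 control libraries. An exact permutation test (two-sided) gave p = 0.1, the smallest that 3 against 3 samples allow, and adjusted over the 5 pairs compared it was 0.125. Egln2 minus Egln1 was 0.45 ± 0.07 and 0.46 ± 0.07, a change of 0.01 (exact permutation p = 1).

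**Figure D3:**
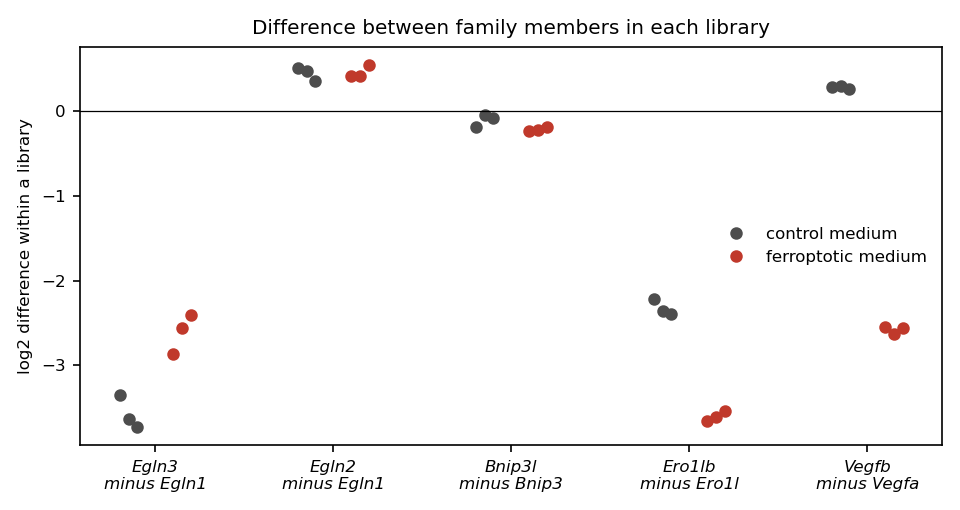
Difference in log2 units between 2 genes of a family within each library (vertical axis), for 5 pairs. Points are libraries, grey for control and red for ferroptotic medium. Egln3 comes closer to Egln1 with ferroptotic medium, Ero1lb and Vegfb fall away from Ero1l and Vegfa, and the Egln2 and Egln1 difference overlaps between media.

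Other genes that set HIF1A stability or activity moved both ways. Of 17 tested genes of HIF degradation and stability 4 passed as higher and 3 as lower, and the median log2 fold change was 0.06. Over all genes tested 19.7% passed as higher and 22.8% as lower, so these counts are near those shares. The ubiquitin ligase gene Siah2, whose product degrades EGLN proteins, rose (0.56, SE 0.07), as did Psmd10 (0.47), Os9 (0.20) and the chaperone gene Hsp90aa1 (0.13). Siah1b fell by 1.11 on the log2 scale, the SUMO protease gene Senp1 by 0.42 and the ligase subunit gene Rbx1 by 0.15. Vhl itself stood at 1074 ± 63.0 with control and 1205 ± 37.9 with ferroptotic medium (0.17, 95% interval 0.01 to 0.32; limma adjusted p = 0.0759). It was chosen for mention after its values were seen, and it passed with quantile normalization (0.0372) or upper quartile scaling (0.0337). The call of Hsp90aa1 was lost without control replicate 2 (limma adjusted p = 0.0878) or ferroptotic medium replicate 2 (0.066) or 3 (0.0851), and without trend and robust fitting (0.122). That of Rbx1 was lost without any 1 of the 3 control libraries (0.0898, 0.145 and 0.071) or without ferroptotic medium replicate 1 (0.096) or 2 (0.138), and in 6 other alternatives. Of 11 coactivators and feedback genes 0 rose and 1 fell by limma (1 and 2 at an unadjusted p under 0.05, and 0 and 1 with limma-voom). That gene was Cited2, a hypoxia target that competes with HIF1A for the coactivators CBP and p300 (-0.23, SE 0.03; limma adjusted p = 0.00066). The coactivator genes Ep300 (-0.10; limma adjusted p = 0.0634), Crebbp (-0.21; 0.244) and Ncoa1 (0.11; 0.092) did not pass, though Ncoa1 did with quantile normalization or upper quartile scaling.

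**Figure D4:**
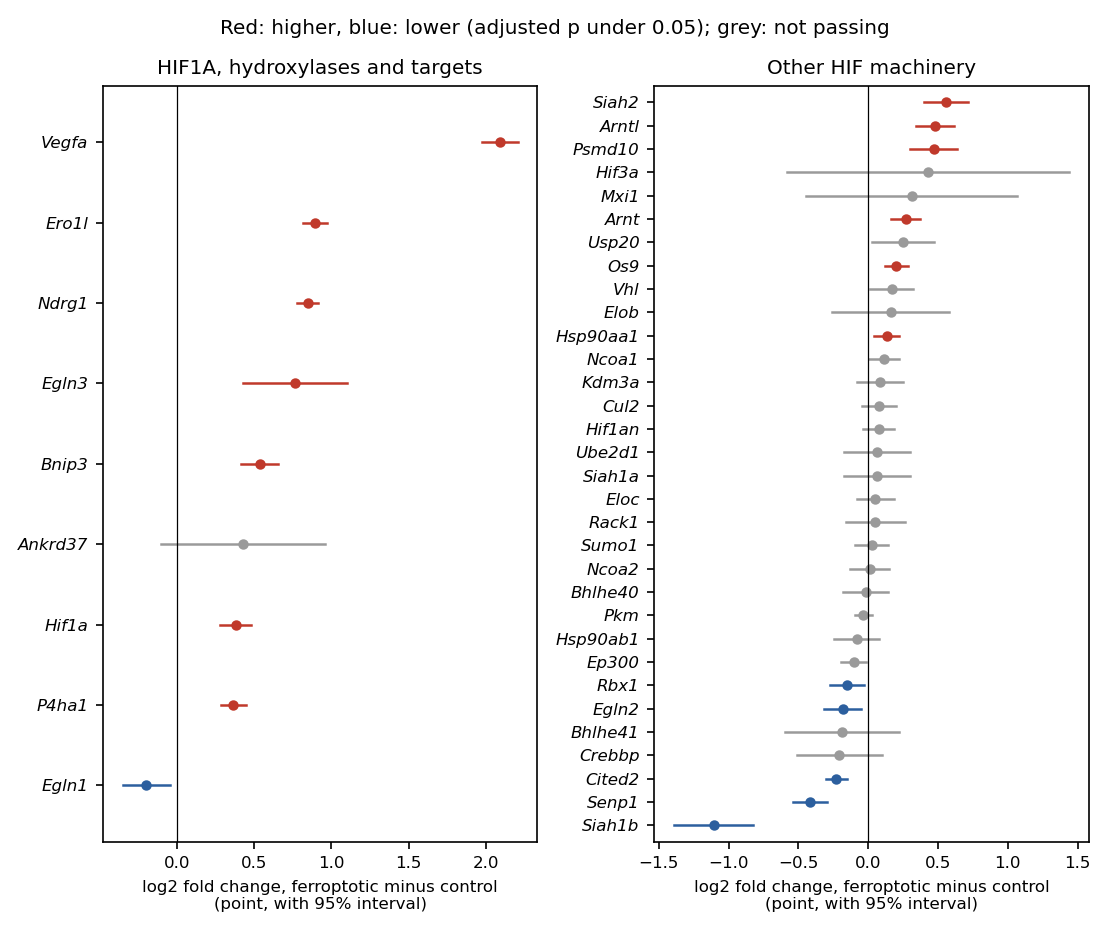
Log2 fold change, ferroptotic minus control medium (horizontal axis), with its 95% interval, for the 9 genes (left) and for the other tested genes of HIF subunits, hydroxylases, stability and coactivation (right). Red points are higher and blue points lower at an adjusted p under 0.05, and grey points did not pass. Vegfa stands far to the right of the other 8 genes.

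Vegfa (ENSMUSG00000023951), the secreted endothelial growth factor and a classical hypoxia target, had the largest change of the 9. It stood at 981, 976 and 1022 normalized counts with control medium and at 4402, 4137 and 4132 with ferroptotic medium. Every ferroptotic medium library was far above every control. Vegfa had a log2 fold change of 2.09 (SE 0.05, 95% interval 1.97 to 2.20; limma adjusted p = 2.63e-08), which ranks 180 from the top among 15597 genes. It is the only one of the 9 in the authors' shorter deposited table of 1699 changed genes. Its FPKM there (a level scaled by gene length and library size) was 4.77, 4.71 and 4.91 with control medium and 21.1, 19.9 and 19.5 with ferroptotic medium. Absence from that shorter table is not a lack of change in the authors' own test. The authors' false discovery rate was also under 0.05 for Hif1a (2.2e-16), Egln1 (0.0247), Egln3 (4.99e-05), Bnip3 (1.3e-21), Ndrg1 (1.9e-154), Ero1l (5.8e-137) and P4ha1 (2.6e-21). Of the other VEGF ligands, Vegfb, which is not a classical hypoxia target, fell from 1208 ± 18.9 to 707 ± 42.7 normalized counts (-0.77, SE 0.07). Vegfb minus Vegfa within a library went from 0.28 ± 0.01 to -2.58 ± 0.04 log2 units (exact permutation p = 0.1, adjusted 0.125). The co-receptor gene Nrp1 rose (0.97, SE 0.11), while Nrp2 (-0.06; limma adjusted p = 0.0793) did not pass, except with quantile normalization (0.0171). Sema3c, a ligand of those receptors with few reads, stood at 0, 0 and 10.8 normalized counts with control medium and at 18.1, 17.4 and 22.2 with ferroptotic medium, and passed as higher (limma adjusted p = 0.0327). Sema3c met the filter on low values only through the ferroptotic medium libraries, so being tested and being higher are linked. Its log2 fold change of 3.14 (SE 1.00) depends on the pseudocount, being 1.72 with a pseudocount of 5 and 3.79 with 0.5. Its call was lost without control replicate 1 (0.0894) or 2 (0.0869) or any 1 of the ferroptotic medium libraries (0.0784, 0.0779 and 0.0923), and without trend and robust fitting (0.066). Without Vegfa, 2 of the 7 tested genes of the VEGF list were higher and 1 lower (19.7% and 22.8% over all genes tested).

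Bnip3 (ENSMUSG00000078566) encodes an outer-membrane protein that recruits the autophagy machinery to mitochondria. It stood at 2622, 2356 and 2423 normalized counts with control medium and at 3461, 3625 and 3634 with ferroptotic medium, with no overlap. Its log2 fold change was 0.54 (SE 0.05; limma adjusted p = 5.41e-05), or 1.45-fold. Its paralog Bnip3l, also named NIX, rose too, from 2295 ± 13.7 to 3080.1 ± 119 (0.42, SE 0.05). Bnip3l minus Bnip3 changed by -0.11 log2 units between media (exact permutation p = 0.1, adjusted 0.125), a small amount beside the rise of either. Of 19 other tested mitophagy receptors and adaptors 10 passed as higher and 1 as lower, and the median log2 fold change was 0.23. Over all genes tested 19.7% were higher and 22.8% lower. The smallest p-values belonged to Sqstm1, the ubiquitin-binding autophagy receptor (1.67, SE 0.03), Gabarapl1 (0.73), Rheb (0.55) and Nbr1 (0.40), which all rose, and the prohibitin gene Phb2 fell by 0.29. In GENCODE M21 28.3% of the exonic length of Gabarapl1 and 17.3% of that of Sqstm1 overlap a gene on the other strand. Those overlapping genes had low means of 2.63 and 181 normalized counts over all libraries.

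Ndrg1 (ENSMUSG00000005125), a stress-responsive gene, is known to be induced by hypoxia and by iron chelation. It stood at 8045, 8112 and 8224 normalized counts with control medium and at 14853, 14442 and 14555 with ferroptotic medium. Both groups were tight, spanning 0.03 and 0.04 log2 units. Ndrg1 had a log2 fold change of 0.85 (SE 0.03, 95% interval 0.78 to 0.91; limma adjusted p = 1.23e-07), or 1.80-fold. Of the rest of its family 2 fell and 1 did not pass (22.8% of all genes tested fell). Ndrg2 fell from 8663 ± 279 to 6479 ± 124 (-0.42, SE 0.04), Ndrg4 fell from 2614 ± 742 to 873 ± 36.8 (-1.54, SE 0.20), and Ndrg3 had 2342 ± 54.0 and 2332 ± 49.2 (-0.01, 95% interval -0.11 to 0.10; limma adjusted p = 0.924), its sign turning to 0.04 with quantile normalization and 0.05 with upper quartile scaling.

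Ero1l (ENSMUSG00000021831) encodes the oxidase that hands oxidizing equivalents to protein disulfide isomerase in the endoplasmic reticulum. It stood at 12569, 12319.8 and 12841 normalized counts with control medium and at 22504, 23622 and 24075 with ferroptotic medium, and the groups lay far apart. Ero1l had a log2 fold change of 0.90 (SE 0.03, 95% interval 0.82 to 0.97; limma adjusted p = 2.13e-07), or 1.86-fold. The paralog Ero1lb fell, from 2509.7 ± 160 to 1927 ± 137 (-0.38, SE 0.07; limma adjusted p = 0.00212). Ero1lb minus Ero1l within a library went from -2.33 ± 0.09 to -3.60 ± 0.05 log2 units (exact permutation p = 0.1, adjusted 0.125). Of the 18 other tested genes of oxidative folding 2 rose and 5 fell (19.7% and 22.8% over all genes tested), and the median was -0.08. With quantile normalization 6 rose and 5 fell, and with upper quartile scaling 6 rose and 4 fell. The 2 were P4hb, the disulfide isomerase that ERO1 oxidizes (0.29, SE 0.02), and the sulfhydryl oxidase gene Qsox1 (0.52, SE 0.05). Those that fell were Erp29 (-0.70, with 24.4% of its exonic length shared with Naa25 on the other strand), Selenom (-0.61), Ero1lb, the peroxiredoxin gene Prdx4 (-0.21) and Pdia6 (-0.08). Naa25 had a mean of 7947 normalized counts over all libraries. The call of Pdia6 was lost without any 1 of the 3 control libraries (limma adjusted p = 0.0997, 0.0602 and 0.147) or without ferroptotic medium replicate 2 (0.0801) or 3 (0.105), and in 4 other alternatives.

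P4ha1 (ENSMUSG00000019916) encodes a catalytic subunit of collagen prolyl 4-hydroxylase, which, like the EGLN enzymes, needs oxygen, iron and 2-oxoglutarate, and whose other subunit is the P4hb product. It stood at 8075, 8033 and 8217 normalized counts with control medium and at 10071, 10806 and 10504 with ferroptotic medium, with no overlap. The log2 fold change was 0.37 (SE 0.04, 95% interval 0.29 to 0.45; limma adjusted p = 5.16e-05), or 1.29-fold. Of 8 other tested genes of collagen hydroxylation and cross-linking, P4hb and the prolyl 3-hydroxylase gene P3h1 (0.39, SE 0.07) rose and Crtap, a partner of P3H1, fell (-0.42, SE 0.08; limma adjusted p = 0.00394), while the lysyl oxidase relative Loxl3 had -0.28 (limma adjusted p = 0.0692, and 0.045 without ferroptotic medium replicate 2). Among all genes tested, 19.7% passed as higher and 22.8% as lower. The substrates were scarce: of 10 collagen genes found 2 passed the filter, Col18a1 (-0.03; limma adjusted p = 0.876, with its sign turning to 0.02 with upper quartile scaling) and Col23a1 (-0.36; 0.392), and 0 of these 2 had an unadjusted limma p under 0.05. Col1a1, Col1a2 and Col3a1 had 10, 1 and 6 reads over the 6 libraries.

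Ankrd37 (ENSMUSG00000050914), a small ankyrin-repeat gene induced by hypoxia in many cell types, had the fewest reads of the 9. It stood at 62.7, 71.5 and 72.4 normalized counts with control medium and at 85.1, 128 and 73.1 with ferroptotic medium. The ferroptotic medium libraries spanned 0.80 log2 units, and replicate 3 was within 1 normalized count of the highest control. The log2 fold change of Ankrd37 was 0.43 (SE 0.23, 95% interval -0.10 to 0.96; limma adjusted p = 0.179), and the authors' deposited table gives it a false discovery rate of 0.199. It had 494 reads over the 6 libraries. In GENCODE M21 22.7% of its exonic length overlaps Lrp2bp on the other strand and 3.70% overlaps Ufsp2. Over all libraries Lrp2bp had a mean of 8.68 normalized counts and Ufsp2 had 3097, far above Ankrd37. The sources used here do not say whether counting used strand, so reads of these genes cannot be fully told apart. Gm45507 likewise overlaps 22.2% of the exonic length of Bnip3 on the other strand.

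Levels can be ranked between genes only per length. Normalized counts were divided by the merged exon length in GENCODE M21, and for 755 genes this length had a correlation of 0.999 (log2 scale, across genes) with the length implied by the authors' FPKM. With control medium the order per kilobase was Ero1l (2380 ± 49.3 normalized counts per kilobase), P4ha1 (1971 ± 23.5), Hif1a (1299 ± 10.4), Ndrg1 (1232 ± 13.7), Bnip3 (1089 ± 60.9), Egln1 (406.5 ± 28.0), Vegfa (232 ± 5.91), Egln3 (45.8 ± 3.33) and Ankrd37 (44.8 ± 3.50). The last 2 overlapped between libraries, and the other neighbours did not. With ferroptotic medium Ndrg1 (2216 ± 32.2) stood above Hif1a (1692 ± 99.1), and Vegfa (986 ± 36.1) above Egln1 (354.5 ± 10.2), while the other places were as before. Neighbours whose libraries overlapped in that medium were Hif1a and Bnip3 (1578 ± 42.9), and Egln3 (78.4 ± 10.3) and Ankrd37 (62.0 ± 18.7).

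The wider sets of hypoxia targets, which leave out the 9 genes, moved in part, with more genes higher than lower. Of 27 glycolytic targets 13 rose, 2 fell and 12 did not pass, with a median log2 fold change of 0.12. Over all genes tested 19.7% rose and 22.8% fell. Slc2a1, the glucose transporter GLUT1, went from 11359 ± 359 to 22534 ± 732 normalized counts (0.99, SE 0.04), the phosphoglycerate kinase gene Pgk1 from 52566 ± 705 to 70265 ± 1251 (0.42, SE 0.02), and the enolase gene Eno2 (1.05) and the phosphoglucomutase gene Pgm2 (0.46) also rose. Those that fell were Ldha, the lactate dehydrogenase subunit, from 67782 ± 792 to 61555 ± 1258 (-0.14, SE 0.02), and Pfkm (-0.29; limma adjusted p = 0.0255). The call of Pfkm was lost without control replicate 2 (0.0804) or 3 (0.0794) or ferroptotic medium replicate 2 (0.0828) or 3 (0.0745), and in 3 other alternatives. Pdk1, the kinase that shuts pyruvate out of mitochondria and a standard hypoxia marker, had 2971 ± 51.6 and 2782 ± 131 (-0.10, 95% interval -0.21 to 0.01; limma adjusted p = 0.148).

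Of 44 other hypoxia targets 19 rose, 5 fell and 20 did not pass, with a median of 0.22. The shares over all genes tested were 19.7% higher and 22.8% lower. Gys1, which rose (1.10), stands in this set and in the glycolytic set and is counted in each. Some of these targets, Cited2 and Kdm3a among them, are also counted with the coactivators and feedback genes. Among those that rose, with some of the smallest p-values, were Hmox1, haem oxygenase 1 (3.86, SE 0.02), the growth factor gene Pdgfb (1.02, SE 0.03) and Ddit4, the mTOR inhibitor REDD1 (2.78, SE 0.09). Each of these is known to respond to other stresses as well. The 5 that fell were Ppfia4 (-1.48), Tfrc, the transferrin receptor (-0.30), Cited2, the carbonic anhydrase gene Car12 (-0.35) and Mif (-0.15; limma adjusted p = 0.0131, but 0.0983 with upper quartile scaling and 0.0815 without trend and robust fitting). The mitochondrial gene Fam162a went from 3751 ± 647 to 8667 ± 114 (1.22, SE 0.13), with 19.8% of its exonic length shared with Wdr5b on the other strand. Wdr5b had a mean of 252 normalized counts over all libraries. The histone demethylase gene Kdm3a, at 1747 ± 149 and 1852 ± 87.7 (0.09, 95% interval -0.08 to 0.25; limma adjusted p = 0.385), and the peptide hormone gene Adm, at 52.4 ± 16.6 and 66.4 ± 8.62 (0.37, 95% interval -0.22 to 0.96; 0.288), did not pass. Pdk1, Fam162a, Kdm3a and Adm were chosen for mention after their values were seen.

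In both target sets together, 58 genes had a promoter window, and 63.8% of them held ACGTG. It was in 16 of the 25 that rose, 6 of the 7 that fell and 15 of the 26 that did not pass. Over all genes tested with a window, the shares of those that rose, fell and did not pass were 30.4%, 30.0% and 28.6%.

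**Figure D5:**
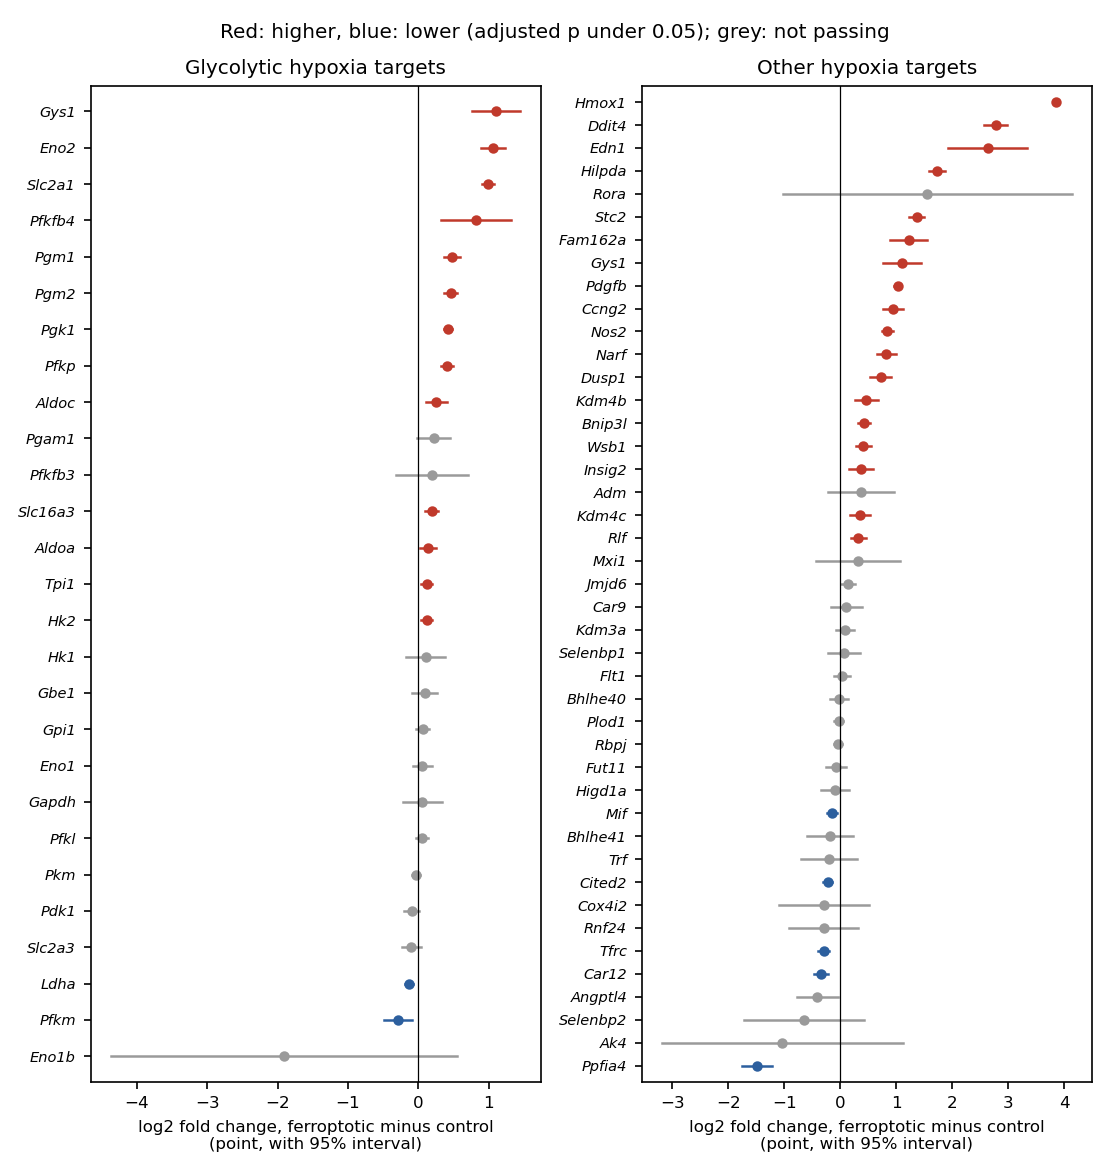
Log2 fold change, ferroptotic minus control medium (horizontal axes), with its 95% interval, for the tested hypoxia targets other than the 9 genes and 1 gene that is not shown, glycolytic on the left and other on the right. Red points are higher, blue points lower and grey points did not pass. Most glycolytic genes lie within 0.5 log2 units of 0, and Hmox1 and Ddit4 stand highest among the others.

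Other stress genes moved in the same libraries. All 10 markers of the transcription factors ATF4 and CHOP, which are induced by amino acid and endoplasmic reticulum stress, were higher, against 19.7% of all genes tested. Their median log2 fold change was 1.68. Among them were Chac1 (3.63), Trib3 (2.65), Asns (1.55), Sesn2 (1.77) and Ddit3 (1.46), the last chosen for mention after its value was seen. The call of Atf4 itself (1.57; limma adjusted p = 0.0147) was lost without ferroptotic medium replicate 1 (0.0546), 2 (0.055) or 3 (0.0517), and its control libraries stood at 4187, 7336 and 8568 normalized counts. Vegfa, Ero1l, Ndrg1 and Ddit4 are known to respond to such stress as well as to hypoxia. The part of these factors in the rises described here was not tested. Among 26 other 2-oxoglutarate oxygenases, which share cofactors with the EGLN enzymes, 10 rose and 7 fell, with a median of 0.11. Over all genes tested 19.7% rose and 22.8% fell. The histone demethylase genes Kdm5b (1.17), Kdm4a (0.95) and Kdm6b (0.95) rose and Kdm2b (-0.71) fell.

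Each library held 39624311 to 50557794 reads on genes, as worked out from the deposited values. Summed over the genes of each list found in the table, normalized counts of markers of other cell types ranged, in control and then in ferroptotic medium libraries, from 19.6 to 24.4 and 49.1 to 96.4 for fibroblasts, 376 to 449 and 469 to 511 for endothelium, 15.7 to 42.1 and 104 to 114 for neurons, 9.25 to 15.7 and 136 to 159.5 for neutrophils, and 181 to 228 and 238 to 278 for monocytes. Astrocyte markers ranged from 3362 to 3652 and 4182 to 4367, and oligodendrocyte markers from 8826 to 9386 and 6146 to 6359. Of the tested markers 1 of 2 rose for fibroblasts (Dcn), 1 of 5 for endothelium (Pecam1), 1 of 2 for neurons (Tubb3), 1 of 1 for neutrophils (S100a8), and 0 of 3 for monocytes by limma (1 at an unadjusted p under 0.05). Dcn, Tubb3 and S100a8 met the filter on low values only through the ferroptotic medium libraries, so being tested and being higher are linked for them. With control medium they stood at 6.86, 11.8 and 6.85 (Dcn), 2.94, 4.21 and 7.83 (Tubb3), and 14.7, 9.25 and 15.7 (S100a8) normalized counts. For astrocytes 2 of 4 rose (Gja1 and Aldoc) and 1 fell (Aldh1l1), and for oligodendrocytes 1 of 5 rose (Mag) and 3 fell (Mbp, Cldn11 and Cnp). Of 11 tested microglia and macrophage markers 2 rose and 4 fell. Beside all these marker counts, 19.7% of all genes tested passed as higher and 22.8% as lower. The part of such cells in the results was not tested.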

How the data were processed

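RNA of 6 samples, 3 per medium, was sequenced after mRNA library preparation, per the labels' protocols. The submitters' processing notes name HISAT2 2.1.0, fastp 0.17.1, R 3.4.3 and DESeq2 1.18.1. The sources used here give no genome build, annotation or counting tool. The authors deposited log2 values. They fit log2(count / size factor + 1), since undoing the log gave whole multiples (within 0.01) of 1 step per library for 100% of values. Reads worked out from these steps may be rounded estimates, since 6101 values came to 3 reads and 5169 to 2. Fold changes are on that log2 scale and understate changes of low genes. FPKM, p-values and false discovery rates deposited by the authors are named as theirs where used.

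The test was limma 3.58.1 (trend, robust, two-sided) in R 4.3.3, medium as the 1 term, on the 15597 genes that reached 10 normalized counts in 3 or more libraries, with Benjamini-Hochberg adjustment. It was tested on simulated data. SE is limma's. Where 1 symbol stood on several gene IDs (34 symbols), the most highly expressed ID was taken. The genes and the 14 pathway and 8 marker lists were chosen with earlier results of these data known. Named are the 9 genes, up to 4 other genes per pathway list with the smallest p-values, genes in counts of 5 or fewer, and paralogs. A few genes chosen after their values were seen are said to be so, and the share of tested genes' promoters with a core was added then too. Protein sequences were planned and not used here. For 1 listed hypoxia target the values are not reported here, and it is included in the list's counts. Alternatives were other filters, pseudocounts, scalings, limma-voom, a replicate block and leaving out each library. Within each group, replicates varied beyond counting noise (chi-square per degree of freedom 16.3 to 22.8).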

Additional observations from a re-analysis of the deposited data

How the results depend on the processing

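Hif1a, Egln3, Vegfa, Bnip3, Ndrg1, Ero1l and P4ha1 kept their direction and their call in all 15 alternatives, and Ankrd37 passed in 0 of them (limma adjusted p from 0.0814 to 0.511). Egln1 kept its sign (log2 fold change -0.25 to -0.14) and its call in 4 of 15. The count of the 9 genes that passed was 8 or 7 in every alternative, and leaving out 1 library each gave 7 to 8. The count of genes changed by ferroptotic medium lay between 5798 and 6188 when 1 library was left out. With upper quartile scaling 54.5% of calls were higher, against 46.4%.

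The replicate numbers do not pair the samples: deviations of same-numbered libraries had correlations of 0.009, -0.02 and -0.039. With the replicate block the count of genes changed by ferroptotic medium was 6226, against 6629, and Egln1 had a limma adjusted p = 0.0845. Signs turned for 2 genes that never passed. Ndrg3 (-0.0065) was at 0.0444 with quantile normalization, 0.0457 with upper quartile scaling, and from -0.0216 to 0.0124 when 1 library was left out (0.0088 without ferroptotic medium replicate 3). Col18a1 (-0.0281) was at 0.0241 with upper quartile scaling and from -0.123 to 0.034 when 1 library was left out (0.0156 without control replicate 2, 0.0048 without ferroptotic medium replicate 3). The cause was not tested. Counts of list genes (without the 9) that moved by over 1.5 times were these. The ER oxidative folding genes that rose numbered 6 with quantile normalization or upper quartile scaling, against 2 (2 to 3 when 1 library was left out). The coactivators that rose numbered 1 with either scaling, against 0, and those that fell 1 to 2 when 1 library was left out. The 1 other hydroxylase that fell (Egln2) became 0 with either scaling, without trend and robust fitting, with the replicate block, and when 1 library was left out (0 to 1). The VEGF genes that rose numbered 1 to 2 when 1 library was left out, and those that fell 2 with quantile normalization. The collagen hydroxylation genes that fell numbered 2 with the replicate block and 1 to 2 when 1 library was left out, against 1. The glycolytic targets that fell numbered 1 with upper quartile scaling, without trend and robust fitting, and with the replicate block, and 1 to 2 when 1 library was left out, against 2. Within-library differences of paralogs moved by less than 1 SD in 9 alternatives each. All 8 genes with a promoter window held ACGTG in at least 1 window, for Vegfa only in that of the downstream start. Depth limits Ankrd37 (494 reads over the 6 libraries) most among the 9 genes. Other named genes that were tested had fewer reads: Sema3c (65), Hif3a (89), Dcn (141), Tubb3 (189), Col23a1 (212), Adm (356) and S100a8 (447).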
